A study of Mus musculus with 2 samples.

Results

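The genes described here encode enzymes that place or remove methyl and acetyl groups on histones and, for some of them, on other proteins. They were chosen by symbol, as genes of the Kdm, Kmt2, Kmt5, Setd, Ehmt, Suv39h, Prmt, Hdac, Sirt and Kat families, represented by a probe set named to a single gene, and off chromosome 14. The rule itself uses no measured value, but it was set with earlier results of these data known. This gave 42 genes on 57 probe sets, of 10313 genes on 15273 singly named probe sets. On chromosome 14, 2 further genes of these families, Kat6b and Prmt5, were left out by the same rule. The families fall into 6 groups by what their enzymes do, with 14 lysine methyltransferases, 10 lysine demethylases, 4 arginine methyltransferases, 4 acetyltransferases, 5 zinc-dependent deacetylases and 5 sirtuins.

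The study hybridised RNA of mouse embryonic stem cells to Affymetrix arrays that probe the 3' end of transcripts. There was 1 array for control cells and 1 for cells overexpressing lincU, which is a long noncoding RNA. Both groups were of the same line, with green fluorescent protein knocked in at Sox1, which was kept on feeder cells with 15% serum and 1000 U/ml of leukaemia inhibitory factor and freed of feeder at harvest. How lincU was overexpressed, whether the cells were 1 clone or a pool, and the age or passage of the cultures are not given in the sources used here. In its title the series names naive pluripotency and ERK activity as its subjects, and the arrays compare transcript levels with and without added lincU. Of 10 embryonic stem cell markers, 9 were measured, with log2 signals of 11.51 to 14.85 in control and 11.56 to 14.83 in overexpressing cells. They too went both ways, with Esrrb at a log2 difference, overexpression minus control, of 0.65, Nanog at 0.57 and Lin28a at -0.53. Of 16 feeder fibroblast markers 13 were measured and 9 were bright, with signals up to 10.37 and 10.27 on the control and overexpression arrays and a median log2 difference of 0.0058. Single fibroblast markers went both ways, with Pdgfrb at 0.69, Mmp2 at -0.46 and the dim Pdgfra, under the floor in control, at a bound of 1.31. Fibroblast transcripts were thus measured on both arrays, and their part in the values below was not tested. In such cultures fewer cells of a type and less RNA per cell cannot be told apart.

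Methyl marks on histone lysines are read by position. Methylation of H3K4 marks promoters and enhancers, that of H3K9 marks silent chromatin and repeats, that of H3K36 gene bodies, and that of H4K20 accompanies chromatin compaction and replication. Acetylation of histone tails goes with open chromatin and is laid down by acetyltransferases and removed by deacetylases. In embryonic stem cells the H3K9 methyltransferases silence endogenous retroviruses, and the demethylases Kdm1a, Kdm3a and Kdm4c are known from work on self-renewal and differentiation.

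None of the 29 enzyme genes with bright probe sets differed by 1.5-fold or more between the arrays. Of 5402 bright genes off chromosome 14, 9.39% did, a share at which few of 29 genes would. Lysine methyltransferases had a median log2 difference of -0.22, the lowest of the 6 groups. That order was lost with probe sets that can bind several transcripts (_s_at, _x_at or _a_at) left out, with acetyltransferases at -0.27, zinc-dependent deacetylases at -0.24 and lysine methyltransferases at -0.22. The 3 bright sirtuins were higher by small amounts. With signals raised to a floor, the largest differences were those of the H3K9 methyltransferase gene Ehmt2, of Setd7 and of the H3K4 methyltransferase gene Kmt2d, all lower in overexpressing cells and all from dim probe sets. A gene was called bright where its higher signal reached the median of that array, 7.96 in control or 7.90 in overexpressing cells, and all others were called dim. A floor was set at 5.73 in control and 5.65 with lincU. All log2 differences are overexpression minus control. The number of arrays limits the precision, no difference has a replicate check and no test was possible. The only repeated measurement was that of different probe sets of 1 gene. The log2 difference varied between them with an SD of 0.21 for bright probe sets, over 1634 genes, and 0.56 for dim ones, over 420 genes, and this SD holds no variation between cultures.

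Promoter sequence is shown for Ehmt2 and Kdm3a, which were the furthest below and above 0 of the enzyme genes over the floor on both arrays. The 250 bases before the most upstream RefSeq start of each gene (GRCm38.p6) lay at chr17:34898224-34898473 on the + strand and at chr6:71632918-71633167 on the - strand. Capitals mark matches on either strand to the GC box GGGCGG, the E-box CACGTG and CCAAT. The ETS core CCGGAAG and TATAAA were searched for too and had no match in either window. No match overlapped another.
Ehmt2: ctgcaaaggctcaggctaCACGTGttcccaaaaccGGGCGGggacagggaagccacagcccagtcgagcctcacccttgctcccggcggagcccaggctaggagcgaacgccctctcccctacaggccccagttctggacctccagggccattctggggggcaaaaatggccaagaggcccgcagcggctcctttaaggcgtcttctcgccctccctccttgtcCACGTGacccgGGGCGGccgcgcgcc
Kdm3a: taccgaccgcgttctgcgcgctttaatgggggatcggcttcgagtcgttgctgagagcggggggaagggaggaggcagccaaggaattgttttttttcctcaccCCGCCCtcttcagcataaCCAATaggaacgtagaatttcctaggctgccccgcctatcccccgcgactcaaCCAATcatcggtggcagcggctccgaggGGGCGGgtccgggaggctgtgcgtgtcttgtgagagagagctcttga
The Ehmt2 window held 2 E-boxes and 2 GC boxes, and the Kdm3a window 2 GC boxes and 2 CCAAT matches. A 3' array does not show which start a transcript used. Of the 42 genes, 36 had a promoter entry, and 20 of these windows (55.6%) held a GC box, against 53.4% of 8253 windows of all genes of the table with an entry. The ETS core stood in 7 of the 36 (19.4%) and in 11.8% of all windows, CCAAT in 13 (36.1%) and 35.6%, the E-box in 4 (11.1%) and 7.66%, and TATAAA in 3 (8.33%) and 9.0%. The median ratio of observed to expected CG dinucleotides was 0.79 in the enzyme genes and 0.67 in all genes. Among bright genes alone the ETS core stood in 5 of 24 enzyme windows (20.8%) and in 16.7% of 4633 windows, and the CG ratios were 0.77 and 0.78.

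Of the 42 genes, 29 were bright, 28 of them on both arrays. The remaining one, Setdb1, reached the median on the control array alone. In the bright group 18 genes were lower and 11 higher, with a median log2 difference of -0.069 and values from -0.50 to 0.44. Over the 5402 bright genes off chromosome 14 the median was 0.0057, and 49.2% were lower by any amount. None of the 29 was at least 1.5-fold higher, where 3.76% of those 5402 genes were, and none was at least 1.5-fold lower, where 5.63% were. At 1.5-fold in either direction the share was 9.39%. Counted with chromosome 14, 261 of 5609 bright genes were at least 1.5-fold higher and 375 lower, against 203 and 304 of the 5402. A log2 difference smaller than the SD of 0.21 was found in 15 of the 29, and in 2996 of the 5402. With each array centred on its own median the split was 15 lower and 14 higher. The plot of signals on both arrays shows the short distance between most pairs.

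**Figure D1:**
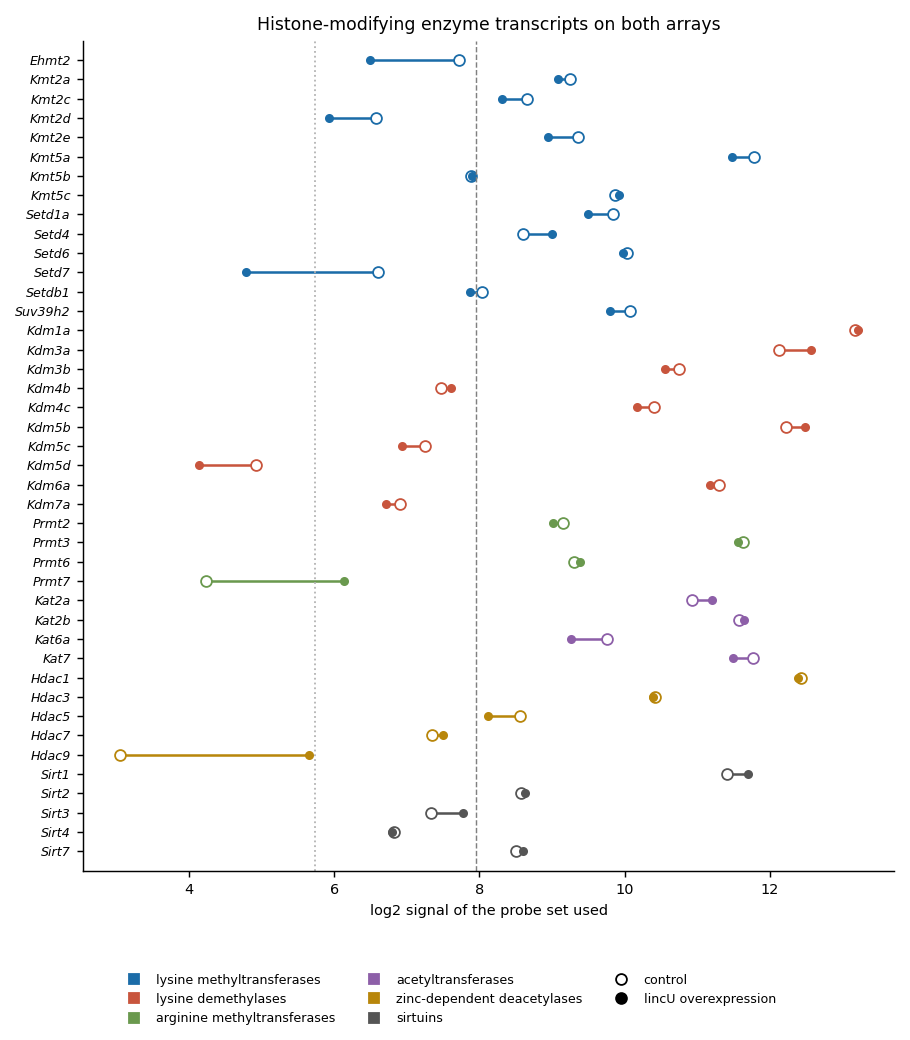
Log2 signal of the probe set used for each of the 42 enzyme genes on the control array (open circles) and the lincU overexpression array (filled circles), coloured by enzyme group. The dashed line is the control median of 7.96 and the dotted line the control floor of 5.73; for most genes the circles lie close together, and the longest bars belong to genes left of the dashed line, toward higher signal with lincU in Hdac9 and Prmt7 and toward lower signal in Setd7 and Ehmt2.

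The lysine methyltransferases transfer methyl groups from S-adenosylmethionine, most of them through a SET domain. Of the 14, 10 were bright, and 8 of these were lower in overexpressing cells, against 49.2% of all bright genes off chromosome 14. With each array centred on its median, 7 of the 10 were lower. Setd4 and Kmt5c were the bright exceptions. In 4 of the 10 the difference was smaller than the SD of 0.21 between bright probe sets of a gene. The same held for 2996 of the 5402 bright genes off chromosome 14. The 4 included Kmt2a and Setdb1, both at -0.16, and Setd6 at -0.045, all counted as lower. Setd6 stood at 0.34 on its other bright probe set, and Setdb1 was bright through its control signal alone.

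The Kmt2 and Setd1 enzymes methylate H3K4 within COMPASS-type complexes, apart from Kmt2e, whose own methyltransferase activity is in doubt. All 5 genes measured were lower, 4 of them bright. Kmt2e had log2 signals of 9.36 in control and 8.94 with lincU on its brighter probe set and of 8.56 and 8.03 on another, giving differences of -0.41 and -0.53. Setd1a, a catalytic subunit for the trimethylation of promoters, went from 9.84 to 9.50, a difference of -0.34. Kmt2c, which acts on enhancers, went from 8.65 to 8.31, also -0.34, and Kmt2a, the homologue of Drosophila trithorax, from 9.25 to 9.08, or -0.16. The median of the 4 bright genes, Kmt2e among them, was -0.34. Kmt2d, the close paralogue of Kmt2c at enhancers, was dim, with 6.57 in control and 5.93 with lincU. Its difference of -0.64 lay near the SD of 0.56 between dim probe sets, and it became 0 with a floor at the 40th percentile, which lies above both values. The value was -0.34 with a pseudocount of 64 in place of the floor.

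The H3K9 methyltransferases were lower in each of the 3 genes measured. Ehmt2 encodes G9a, the main enzyme of H3K9 dimethylation in euchromatin. Its single probe set gave 7.72 in control and 6.50 with lincU, a 2.33-fold lower signal with a log2 difference of -1.22. It was dim, above the floor on both arrays, and 2.19 times the SD of dim probe sets away from 0. Of 1716 dim genes off chromosome 14 above the floor on both arrays, 4.25% were at least 2-fold lower, and 34 (1.98%) had a difference as low as that of Ehmt2 or lower. At the 40th percentile floor the difference of Ehmt2 was -0.77 and with the pseudocount -0.83. The 5 bright genes on each side of Ehmt2 on chromosome 17, enzyme genes left out, had a median of -0.30. It was the lowest such median of the 42 genes, whose range was -0.30 to 0.20. The part of this neighbourhood in the Ehmt2 value was not tested. Suv39h2, which trimethylates H3K9 at pericentric repeats, had a bright probe set at 10.08 and 9.79 and another at 8.12 and 7.81, with differences of -0.28 and -0.31. Setdb1, which trimethylates H3K9 at endogenous retroviruses with its partner Trim28, went from 8.03 to 7.88, or -0.16, less than the SD between probe sets. Ehmt1 and Suv39h1 were not analysed here.

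Of the Kmt5 genes, which encode the H4K20 methyltransferases, Kmt5a, the monomethylating enzyme active at mitosis, went from 11.78 in control to 11.49 with lincU, a difference of -0.30. Kmt5c, one of the enzymes of di- and trimethylation, was nearly level at 9.86 and 9.92. Kmt5b, its paralogue, had a dim probe set at 7.89 on both arrays and a dimmer one at 5.89 in control and 6.43 with lincU, a difference of 0.54. The Setd genes went different ways. Setd4 had a difference of 0.39 on its bright probe set, from 8.60 to 8.99, and of 0.79 on a dim one, from 6.09 to 6.88. Averaged over both it stood at 0.59, the only one of the 29 bright genes past 1.5-fold higher under that setting. Setd6, which methylates the NF-kB subunit RelA, had bright probe sets of opposite sign, at -0.045 and 0.34. Setd7, a monomethyltransferase with many substrates outside histones, had 6.60 in control and 4.79, under the floor, in overexpressing cells. Its floored difference of -0.95 is a bound that depends on where the floor is set.

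Among all 42 genes, dim ones included, Ehmt2, Setd7 and Kmt2d were at least 1.5-fold lower with the floor applied, and no floored difference reached 1.5-fold higher. The floor limits this count on both sides. Without it Setd7 stood at -1.81 and Prmt7, under the floor in control, at 1.90. Of the genes under the floor on both arrays, Kdm5d stood at -0.78 and Hdac9 at 2.60. Of all 9950 genes off chromosome 14, 7.86% were at least 1.5-fold lower and 4.62% higher, and of the dim ones above the floor on at least 1 array 18.5% were lower. The 3 genes were part of 11 dim enzyme genes above the floor on at least 1 array, of which that share would be 2.04. The plot of differences by group shows the 3 low open circles among the lysine methyltransferases.

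**Figure D2:**
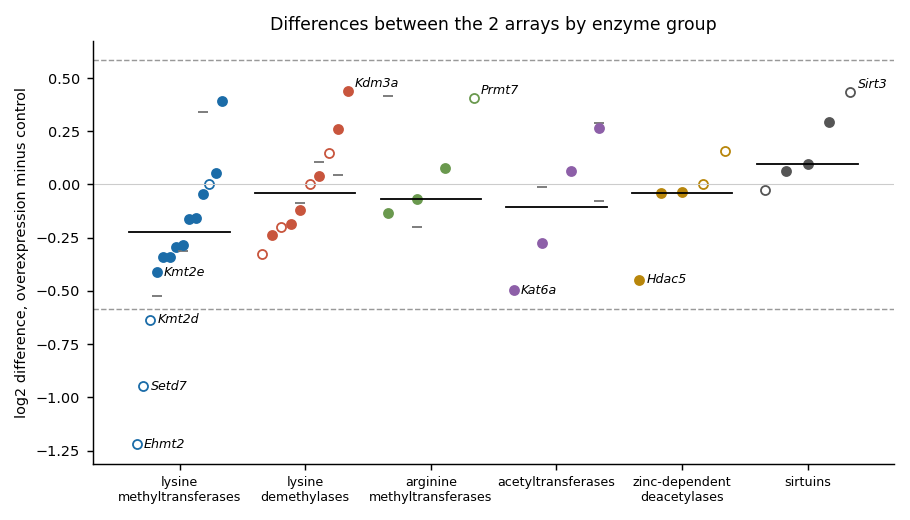
Log2 difference, overexpression minus control, of each enzyme gene by group, with bright genes as filled circles, dim genes as open circles, other bright probe sets of the same gene as grey dashes and the median of bright genes as a black line. Dashed lines mark 1.5-fold; no filled circle lies beyond them, and the lysine methyltransferase line, at -0.22, is the lowest of the 6 with all probe sets used.

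The lysine demethylases remove methyl groups, Kdm1a by an amine oxidase reaction and the others listed here through a Jumonji domain that needs iron, oxygen and 2-oxoglutarate. Of 10 genes 6 were bright, 3 higher and 3 lower, with a median of -0.042. Kdm3a, an H3K9 demethylase whose gene is induced by low oxygen, had the highest difference of the bright enzyme genes, at 0.44, from 12.13 in control to 12.57 with lincU. Of the 5402 bright genes off chromosome 14, 6.96% had a difference as high or higher. Kdm3b, its paralogue, was lower, from 10.74 to 10.56, or -0.19. Kdm5b, which removes H3K4 methylation, went from 12.23 to 12.49 on its brighter probe set, a difference of 0.26, and stood at 9.04 and 9.08 on another, or 0.045. Kdm4c, which acts on trimethylated H3K9 and H3K36, went from 10.40 to 10.16, or -0.24. Kdm1a, also known as LSD1, which acts on H3K4 with the CoREST complex, had 13.17 and 13.21 on 1 probe set and 11.54 and 11.65 on the other, with differences of 0.038 and 0.11. Kdm6a, the X-linked H3K27 demethylase, differed by -0.12 and -0.087 on its 2 bright probe sets, with 11.30 in control and 11.18 with lincU on the brighter. The differences of Kdm1a and Kdm6a lay within the SD between probe sets of a gene. Kdm4b, Kdm5c and Kdm7a were dim, with differences of 0.15, -0.33 and -0.20, and the Y-linked Kdm5d was under the floor on both arrays. A second dim probe set of Kdm5c differed by -0.052.

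Arginine methyltransferases modify histones and many RNA-binding proteins. Prmt2, Prmt3 and Prmt6 were bright and differed by -0.14, -0.069 and 0.079 on the probe sets used. Prmt2 had a second bright probe set of the type shared between transcripts, where it went from 8.86 in control to 9.27 with lincU, a difference of 0.42 against -0.14 on the first, at 9.15 and 9.01. Its mean over both, 0.14, had the other sign. Prmt3, an enzyme of the ribosomal protein Rps2, had 11.63 and 11.56 on 1 probe set and 9.42 and 9.22 on the other. Prmt6, which methylates H3R2, stood at 9.31 and 9.38. Prmt7 was under the floor in control, at 4.23, and dim at 6.14 in overexpressing cells, so that its difference of 0.41 is a bound.

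The 4 acetyltransferase genes were all bright, 2 higher and 2 lower, with a median of -0.10. Kat6a, also known as MOZ, which acetylates H3 within a complex with Brpf proteins, had the lowest difference of the bright enzyme genes, at -0.50, from 9.76 in control to 9.26 with lincU. Of the 5402 bright genes, 7.96% had a difference as low or lower. Kat7, the HBO1 enzyme of H3K14 acetylation, went from 11.77 to 11.50 on 1 probe set, or -0.27, and differed by -0.010 on another. The paralogues Kat2a and Kat2b, which acetylate H3K9 within SAGA-type complexes, were on the other side of 0. Kat2a had 10.93 in control and 11.20 with lincU, a difference of 0.26, with 2 further bright probe sets at 0.29 and -0.078. Kat2b went from 11.57 to 11.64, or 0.065.

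Zinc-dependent deacetylases of class I act in nuclear corepressor complexes, and those of class IIa bind MEF2 factors and move between nucleus and cytoplasm. The class I genes Hdac1 and Hdac3 were nearly level. Hdac1 had 12.43 in control and 12.39 with lincU, and Hdac3 10.42 and 10.39, with differences of -0.040 and -0.034. Hdac5, of class IIa, was lower, from 8.56 to 8.11, a difference of -0.45, and 9.51% of bright genes off chromosome 14 had a difference as low or lower. Hdac7, of the same class, was dim at 7.34 and 7.50 on its brighter probe set, and Hdac9 was under the floor on both arrays. The other probe set of Hdac7 was under the floor in control, at 4.32, and at 6.25 with lincU, so that its difference of 0.52 is a bound. Hdac2 was not analysed here.

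Sirtuins are deacetylases and related enzymes that consume NAD. The nuclear Sirt1 had 11.41 in control and 11.70 with lincU, a difference of 0.29. The mainly cytoplasmic Sirt2 stood at 8.57 and 8.63, and the nucleolar Sirt7 at 8.50 and 8.59, with differences of 0.062 and 0.096 that were smaller than the SD between probe sets. The median of the 3 was 0.096. Of the mitochondrial enzymes, Sirt3 was dim at 7.34 and 7.77, or 0.43, and Sirt4 was dim and nearly level at 6.82 and 6.79.

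Different probe sets of 1 gene gave the measure of how far these differences repeat. Of the 10 enzyme genes with several bright probe sets, 7 had the same sign on all of them: Kat7, Kdm1a, Kdm5b, Kdm6a, Kmt2e, Prmt3 and Suv39h2. Kat2a, Prmt2 and Setd6 did not. The widest range, 0.55, was that of Prmt2, and the narrowest, 0.028, that of Suv39h2. None of the 42 genes lay in the distal part of chromosome 6, from Rad18 to Resf1, whose 97 bright genes had a median of 0.37. In 13 of the 29 bright genes the difference shared its sign with the median of the 5 bright neighbours on each side. Enzyme genes were left out as neighbours, and for Suv39h2 only 6 neighbours were found in all.

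**Figure D3:**
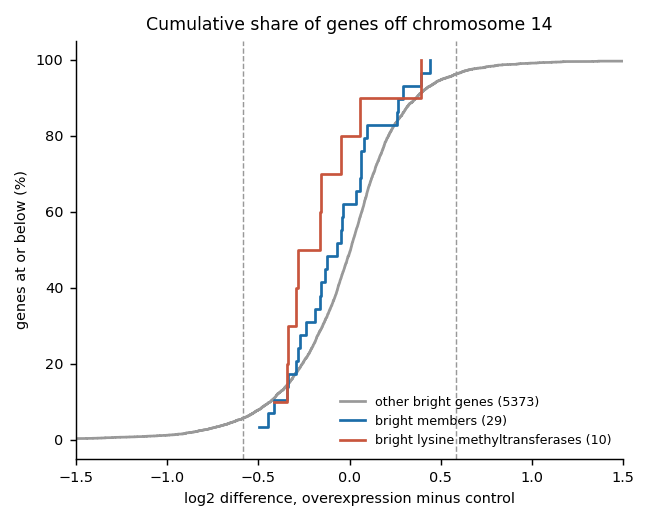
Cumulative percentage of genes at or below each log2 difference, overexpression minus control, for the 29 bright enzyme genes, the 10 bright lysine methyltransferases among them and the 5373 other bright genes off chromosome 14. The enzyme curves end inside the dashed 1.5-fold lines, and the lysine methyltransferase curve runs to the left of the others through most of its height.

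These enzymes work in complexes, and a list of 90 partner genes was described in the same way. It holds subunits of the complexes and histone-modifying enzymes named outside the 10 families. Of these genes 63 were measured and 57 were bright, 27 higher and 30 lower, with a median log2 difference of -0.010. At least 1.5-fold higher were 2, and 2 were at least 1.5-fold lower, against 3.76% and 5.63% of all bright genes off chromosome 14. Smyd2, a lysine methyltransferase of p53 and other proteins, went from 11.10 in control to 10.29 with lincU, or -0.81. Naa60, an acetyltransferase of protein N-termini, went from 9.49 to 8.85, or -0.64. Riox2, a Jumonji-type histidyl hydroxylase, went from 9.66 to 10.29, or 0.63. Tada3, an adaptor subunit of Kat2a and Kat2b complexes, went from 9.89 to 10.52, or 0.64, and lies in the distal part of chromosome 6.

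By complex, the 7 bright COMPASS subunits had a median of -0.024, so that the lower signals of Kmt2a, Kmt2c and Setd1a stood beside subunits of both signs. Their values ran from -0.30 in Ncoa6 to 0.50 in Wdr5, which docks the catalytic subunits and went from 11.62 to 12.11. Ash2l went from 12.90 to 12.74, or -0.16. The 6 bright partners of H3K9 methylation had a median of 0.15. Uhrf1 stood at 0.22 and the corepressor gene Trim28 at 0.17. The heterochromatin protein gene Cbx5 stood at 0.13 and Wiz, the partner of G9a, at 0.19. Cbx1 at -0.013 and Morc3 at -0.11 were on the other side of 0, as was the dim Cbx3 at -0.32. In 5 of the 6 the difference was smaller than the SD of 0.21 between bright probe sets of a gene. Of these 6, 5 were bright on both arrays. Wiz, at 7.75 in control and 7.94 with lincU, reached the median on the overexpression array alone, so that it entered the median of 0.15 through its higher signal. The 9 bright subunits of the SAGA, NuA4, HBO1 and MOZ complexes had a median of 0.099. The 19 bright subunits of the deacetylase corepressor complexes had a median of -0.071. Lower were 12 of them, against 49.2% of all bright genes off chromosome 14, and 11 of the 19 differed by less than that SD. Mta1 of the NuRD complex stood at -0.52 and Rcor2 of the CoREST complex at 0.36. The other acetyltransferases had a median of 0.066 over 5 bright genes, with the CBP gene Crebbp at -0.42 and Ncoa1 at 0.40. The 3 bright genes among the other methyltransferases, Smyd2, Carm1 at -0.56 and Smyd5 at -0.12, were lower, against the same share of 49.2%. The PRMT5 partners Riok1, Wdr77 and Clns1a differed by 0.54, 0.074 and 0.049. The other demethylases and hydroxylases had a median of -0.093 over 5 bright genes.

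**Figure D4:**
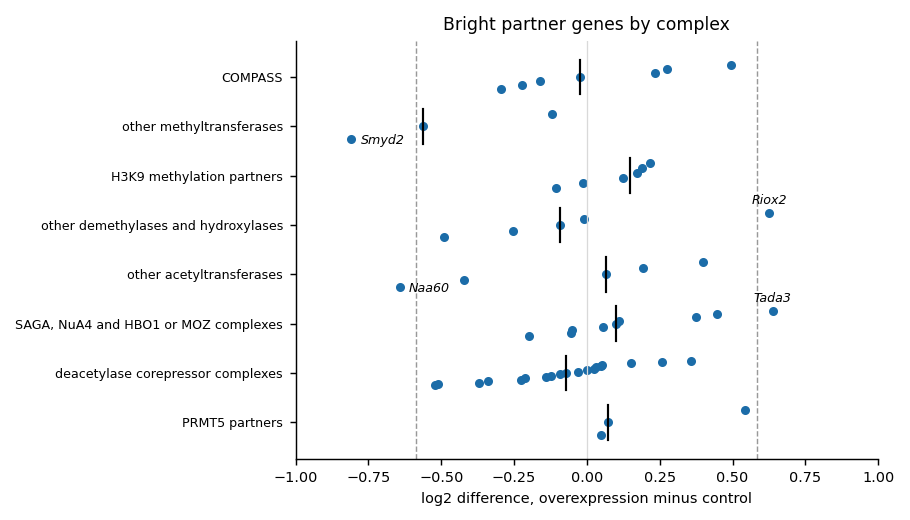
Log2 difference, overexpression minus control, of the 57 bright partner genes by complex, 1 point a gene, with the median of each complex as a black bar and 1.5-fold as dashed lines. Most points lie between the dashed lines, and the 4 named genes, Smyd2, Naa60, Riox2 and Tada3, lie outside.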

How the data were processed

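Each array carried labelled RNA of 1 culture, control or lincU-overexpressing. The deposited values are log2 signals, a scale read from their range. Per the submitters' processing notes MAS5 and affy were used by the authors, with no version, role or scaling target stated.

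Probe sets were named through the platform annotation and updated by gene ID to the RefSeq table of assembly GRCm38.p6. Of 15273 probe sets with 1 gene name, 15252 matched it, among them all 57 of the enzyme genes, and 501 with several names and 1156 with none were left out. Signals below an array's 25th percentile were raised to it, and the probe set with the highest mean over both arrays stood for its gene. With both arrays under this floor the log2 difference was set to 0 and no fold is given. All enzyme genes may be named. Full values go to bright ones at least 1.5-fold apart, to the largest difference in each direction per family and to a short fixed list. Among partner genes they go to bright ones at least 1.5-fold apart. Outside this rule Wdr5, Ash2l and Wiz are given with both signals too. The other enzyme genes are given more briefly. The median of the 5 bright genes on each side, enzyme genes left out, was added after values had been seen. The genes, lists, floor and alternatives were chosen with earlier results of these data known. With 1 array a group there is no test. The gene table was tested on simulated data, with planted shifts in bright genes that were larger than any difference of the bright enzyme genes here. Recovery of smaller shifts and of shifts in dim genes was not tested. Computations used Python 3.11.15, pandas 2.3.3, numpy 2.4.6 and statsmodels 0.14.6.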

Additional observations from a re-analysis of the deposited data

How the results depend on the processing

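No paired analysis was possible because each group had 1 array. The counts of enzyme genes past 1.5-fold and the medians of the groups were recomputed with each array centred on its median, with quantile normalization and with a loess trend subtracted. They were also recomputed without the floor, with it moved to the 40th percentile or replaced by a pseudocount of 64, and with brightness not asked for or set at the 75th percentile. Further settings averaged the probe sets of a gene, left out those of shared or mixed type (_s_at, _x_at or _a_at), left out the distal part of chromosome 6, or asked for 2-fold. Of the 112 recomputed counts and medians, 110 stayed within the limits used here, which were 1.5 times for a count and the probe set SD of 0.21 for a median. The exceptions were the count of higher genes, 1 instead of 0 with probe sets averaged, where Setd4 stood at 0.59, and the count of lower genes, 3 instead of 0 with no brightness rule. Several of the 112 could not move. No enzyme gene lay in the distal part of chromosome 6, and a count of 0 at 1.5-fold is also 0 at 2-fold. Removing the floor or moving it to the 40th percentile changed none of them. The limit of 0.21 is wider than every group median but that of the lysine methyltransferases, so the others could change sign within it. The median of the lysine methyltransferases lay between -0.30 and -0.17 and that of the sirtuins between 0.082 and 0.29 over these settings. With brightness at the 75th percentile a single gene was left in each of these groups, giving the ends of -0.30 and 0.29, and also in the arginine methyltransferases. The medians of the demethylases, arginine methyltransferases, acetyltransferases, zinc-dependent deacetylases and partner genes changed sign under at least 1 setting, each staying between -0.27 and 0.079.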
